A study of Drosophila melanogaster with 2 samples.

Results

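The genes described here carry out DNA replication and drive the cell cycle of the fly. They are 38 protein-coding genes listed by function, with earlier results of these data known, and all 38 were found by symbol among 13945 protein-coding genes of the Ensembl BDGP6 annotation. Binding of CG1792, a zinc finger protein whose family shares an N-terminal zinc-finger associated domain, was read at their transcript starts and gene bodies. The data were ChIP-seq peak lists, in which DNA bound by a protein is precipitated and sequenced. The chromatin came from whole Drosophila melanogaster embryos, both sexes together, aged 0 to 24 hours. The line was stably transgenic for CG1792 with GFP joined to its C terminus, and precipitation used an antibody to GFP, although a separate antibody label names CG1792. All material formed 1 group of 2 libraries, biological replicates 2 and 3. Whole embryos of this age range mix many stages and cell types, so a weak signal may come from few cells or from weak binding in many, and these cannot be told apart. No control library or second condition was among the samples, so there was no contrast to test, and the gene counts are given as descriptions. The lists hold no read counts, so depth is unknown.

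DNA is licensed for replication when the origin recognition complex, with Cdt1, loads the ring-shaped MCM helicase in G1, while geminin blocks reloading. E2F factors with their partner Dp, held back by the Rb family, switch on many replication genes, and cyclins with their kinases drive entry into S phase and mitosis. In the early fly embryo most of these products are first supplied by the mother, and zygotic control of stg, a Cdc25 phosphatase gene, later times the divisions. Many promoters of such genes carry the DNA replication-related element (DRE), the site of the factor Dref, or E2F sites.

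A gene was called bound when one of its annotated starts had, no farther than 500 bp away, the summit of a peak in the list thresholded by reproducibility between replicates. Of the 38 genes, 11 were bound (28.9%), against 1981 of all 13945 protein-coding genes (14.2%). The bound genes were dpa, dup, Mcm2 and Mcm5 of origin licensing, CycD and CycB of the cyclins, Dp of the E2F pathway, and polo, aurA, BubR1 and Bub3 of mitosis. Not one of the 3 replication fork genes was bound. The signal of a peak is the strength its caller wrote, on a scale that is not stated. It ran from 75.83 to 208.1 over the 11 peaks, with a median of 122.1. The 1409 thresholded peaks that were the strongest at a protein-coding start ran from 66.97 to 1478 with a median of 103.8. The strongest member peak, at dpa, ranked 342 of 30000 in the pooled list, and 7 of the 11 lay above 103.8.

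**Figure D1:**
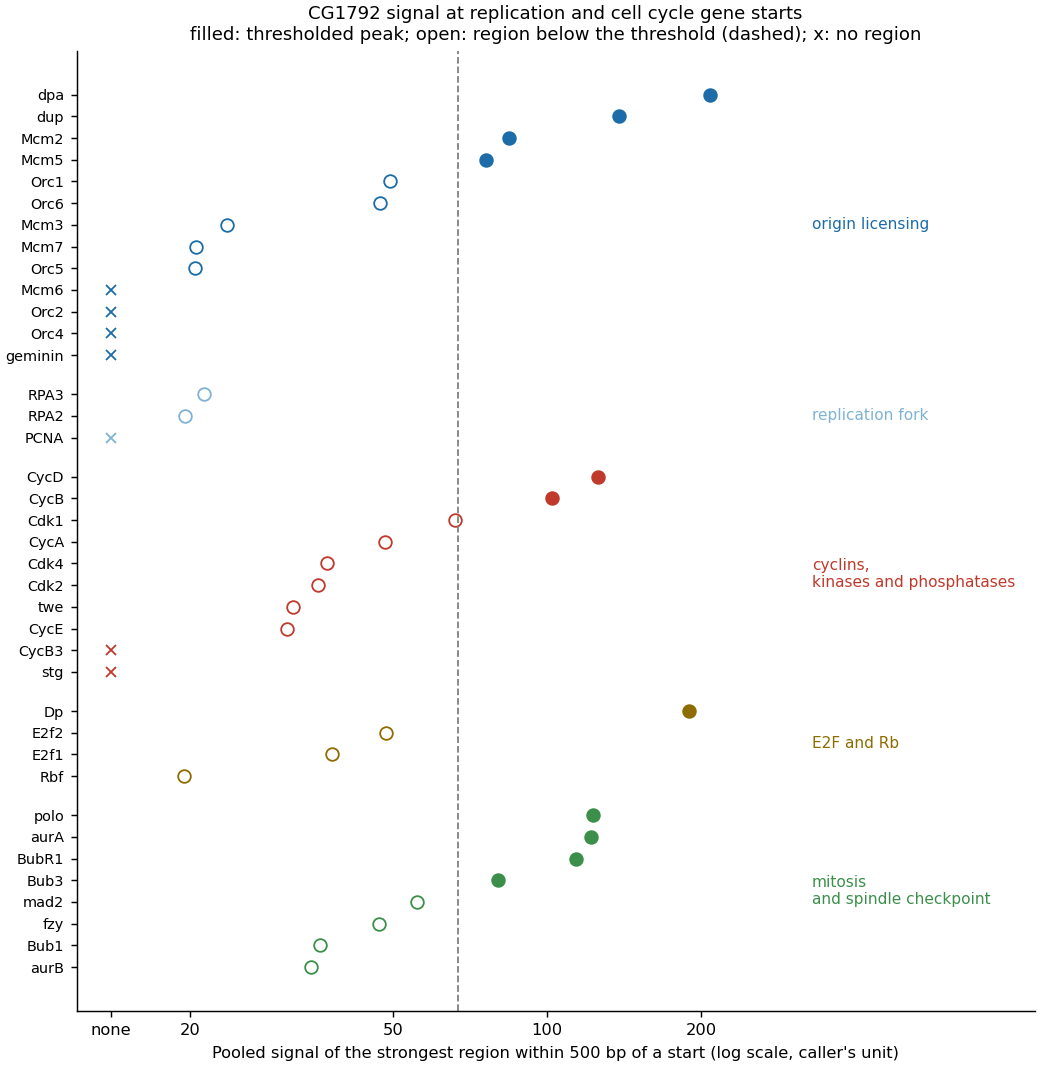
Pooled signal (log scale, the peak caller's unit) of the strongest region within 500 bp of a start of each of the 38 genes, by role; filled points are thresholded peaks, open points regions that missed the threshold, and crosses genes with no region. The 11 filled points lie between 75.83 and 208.1, right of the dashed line at the lowest thresholded signal of 66.97, and Cdk1 lies just left of it at 66.15.

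The DNA under 6 of the 11 summits is printed because these windows are what the calls rest on. Each reaches 50 bp to either side of the summit and is read 5′ to 3′ on the strand of the gene from the RefSeq genome of the same build as the peaks (dm6). Capitals mark letters of the motifs searched on both strands: the DRE TATCGATA, its core CGATA (which lies inside the DRE), the TATA box TATAAA, the core of the M1BP site GGTCACAC, the E-box CACGTG and 4 forms of the E2F site, TTTCGCGC, TTTGGCGC, TTTCCCGC and TTTGCCGC.
CycD, chrX:15910084-15910184, minus strand: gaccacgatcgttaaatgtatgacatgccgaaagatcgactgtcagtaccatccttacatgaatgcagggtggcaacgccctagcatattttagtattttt
polo, chr3L:20309864-20309964, plus strand: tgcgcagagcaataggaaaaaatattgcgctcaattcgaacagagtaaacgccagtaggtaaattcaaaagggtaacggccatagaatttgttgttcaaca
aurA, chr3R:11963011-11963111, plus strand: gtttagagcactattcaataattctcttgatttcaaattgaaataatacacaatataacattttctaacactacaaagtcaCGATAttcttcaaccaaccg
Mcm2, chr3R:8264878-8264978, plus strand: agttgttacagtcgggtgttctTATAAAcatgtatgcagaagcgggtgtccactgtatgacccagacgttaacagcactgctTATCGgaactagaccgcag
Bub3, chr3R:29675476-29675576, minus strand: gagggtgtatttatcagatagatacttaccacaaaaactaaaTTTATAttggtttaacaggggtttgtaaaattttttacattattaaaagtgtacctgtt
Mcm5, chr3R:10788175-10788275, plus strand: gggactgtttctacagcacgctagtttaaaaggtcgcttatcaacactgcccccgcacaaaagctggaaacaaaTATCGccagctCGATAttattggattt

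The windows of CycD and polo held none of the motifs, and those of aurA, Mcm2 and Mcm5 held the DRE core. The letters TATAAA were in the window of Mcm2 on the gene's strand and in that of Bub3 on the other strand. These were 2 of the 11 windows, against 15.1% of the 1409. Over all 11 bound members, 5 windows held CGATA, against 25.9% of the 1409 windows at start peaks, and 0 held the complete DRE, against 5.18%. An E2F form was present in 1 of the 11 windows, that of dpa, and in 18 of the 1409 (1.28%). Neither the M1BP core nor the E-box was found in any of the 11 windows, against 2.13% and 1.85% of the 1409. The GC content of the 11 windows had a median of 39.6% and ran from 26.7% at Bub3 to 47.5% at Mcm2, beside a median of 37.6% over the 1409.

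In Ensembl identifiers and dm6 positions, the 5 bound genes on 2R were dpa (FBgn0015929, peak 7499796 to 7500211), Dp (FBgn0011763, 13223208 to 13223623), dup (FBgn0000996, 15380488 to 15380903), BubR1 (FBgn0263855, 5974285 to 5974700) and CycB (FBgn0000405, 22806795 to 22807210). The 4 on 3R were aurA (FBgn0000147, 11962853 to 11963268), Mcm2 (FBgn0014861, 8264720 to 8265135), Bub3 (FBgn0025457, 29675318 to 29675733) and Mcm5 (FBgn0017577, 10788017 to 10788432). On X lay CycD (FBgn0010315, 15909926 to 15910341) and on 3L polo (FBgn0003124, 20309706 to 20310121).

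Origin licensing, the role of 13 of the 38 members, held the strongest member peak and 4 of the 11 calls. The MCM helicase is a ring of MCM subunits that unwinds DNA at the fork. Of its 6 genes 3 were bound, against 14.2% of all protein-coding genes. At dpa, which encodes the Mcm4 subunit, the signal was 208.1 in the pooled list (rank 342 of 30000), 107.6 in replicate 2 (rank 274) and 103.2 in replicate 3 (rank 421). Both libraries thus placed this peak at much the same height in their lists. The summit, at 7500004 on 2R, lay in the 5′ UTR, 141 bp inside the outer start and 127 bp upstream of the inner one.

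Mcm2 and Mcm5 carried weaker peaks that the replicates ranked less evenly. Mcm2 had a pooled signal of 84.05 (rank 1959), with 44.98 in replicate 2 (rank 1660) and 35.07 in replicate 3 (rank 3249). Its summit lay 42 bp upstream of the start. Replicate 3 alone would therefore have left Mcm2 outside its 2892 strongest regions, the size of the thresholded list. Mcm5 had the lowest signal of the bound members, 75.83 (rank 2343), at 299 bp upstream, with 40.14 in replicate 3 (rank 2571). Replicate 2 had no summit within 100 bp of it. Its strongest region at Mcm5 lay 152 bp upstream of the start, with a signal of 39.48 (rank 2087). The pooled list held a second region there, at 100 bp upstream (signal 54.03), which missed the threshold.

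The other subunits had weak regions or none. Mcm3 had a region in its coding sequence, 416 bp downstream of the start (pooled signal 23.58, rank 18916), with a partner in replicate 2 only (23.54). Mcm7 had a region at 22 bp downstream (20.59, rank 24151), with a partner in replicate 3 only (11.88), and Mcm6 had no pooled region within 500 bp. The 5 listed genes of the origin recognition complex, which marks origins, included 0 bound, against 14.2% of all protein-coding genes. Orc1 had the highest signal among them, 49.29 at 61 bp upstream (rank 4861; 25.0 in replicate 2 and 25.53 in replicate 3). Orc6 had 47.18 at −376 bp (24.27 in replicate 2 and 19.59 in replicate 3). Orc5 had 20.41 with a partner in replicate 3 only (22.38), and Orc2 and Orc4 had no region within 500 bp of a start.

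The loading factor and its inhibitor differed. The gene dup, which encodes the fly Cdt1 that helps load the helicase, had a pooled signal of 138.0 (rank 798), 64.31 in replicate 2 (rank 841) and 75.78 in replicate 3 (rank 797). Its summit lay at 15380696 on 2R, in the 5′ UTR, 82 bp upstream of the inner of 2 starts and 292 bp inside the outer one. The gene geminin, whose product binds Cdt1, had no region in the pooled list at either of its starts, and its nearest thresholded summit was 3481 bp away.

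The listed replication fork genes had weak regions or none. PCNA, the sliding clamp of the DNA polymerases, had no region within 500 bp, and the nearest thresholded summit lay 1080 bp from a start. The single-strand binding protein RPA has subunits RPA1, RPA2 and RPA3. RPA2 had a signal of 19.52 (rank 26413) and RPA3 21.29 (rank 22820), both near the lowest value of the pooled list, 18.02. Each had a partner in replicate 3 only (11.68 at RPA2 and 11.79 at RPA3). RPA1, which is not among the 38, shared the summit at Mcm2 described below.

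Of the listed genes that drive the cycle, 2 of 5 cyclin genes were bound, and 0 of 3 kinase genes. Of the Cdc25 genes 0 of 2 were bound. The share over all protein-coding genes was 14.2%. CycD encodes the G1 cyclin that pairs with Cdk4. Its signal was 125.9 in the pooled list (rank 940), 84.58 in replicate 2 (rank 481) and 40.53 (rank 2529) in replicate 3. The ranks thus lay far apart, and the summit, 458 bp upstream on X, was the farthest from a start among the bound members. CycB, a mitotic cyclin gene, had 102.4 in the pooled list (rank 1402), 55.73 in replicate 2 (rank 1080) and 50.95 in replicate 3 (rank 1650), at 55 bp upstream of the outermost of 3 starts. CycA, another mitotic cyclin gene, had 48.24 at 19 bp downstream, with a partner in replicate 2 (28.55) and none in replicate 3. CycE, the S phase cyclin gene, had 30.9 with a partner in replicate 3 only (23.4). The strongest replicate 2 region at a CycE start lay elsewhere, at −459 bp, with a signal of 30.37 (rank 3396). The mitotic cyclin gene CycB3 had no region within 500 bp of a start.

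Cdk1, the mitotic kinase gene, was the member just outside the threshold. Its region lay at −184 bp from the start, with a pooled signal of 66.15 (rank 2966), 34.99 in replicate 2 (rank 2573) and 30.93 (rank 3998) in replicate 3. The lowest thresholded signal was 66.97, and Mcm5 at 75.83 was the nearest member inside. The start of mRpS7 lies within 500 bp of the same summit. Cdk4, the partner of CycD, had 37.04 with a partner region in replicate 3 only (18.61), and a thresholded summit lay 613 bp from one of its starts. Cdk2, the partner of CycE, had 35.66 (20.04 in replicate 2 and 14.98 in replicate 3), in an intron 239 bp downstream. The gene stg had no region at its starts, and its nearest thresholded summit was 35188 bp away. The other Cdc25 gene, twe, which acts in meiosis, had 31.8 with a partner in replicate 2 only (19.4).

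In the E2F pathway, Dp was bound and the other 3 listed genes were not. The share bound over all protein-coding genes was 14.2%. Dp encodes the partner that E2F factors need to bind DNA, and it had the second strongest member peak. Its signal was 189.6 in the pooled list (rank 428), 94.73 in replicate 2 (rank 367) and 97.71 in replicate 3 (rank 471), so both replicates placed it close together. The summit lay in an intron, 983 bp inside the outermost of 3 starts and 175 bp upstream of the next. Dp was also the one bound member with a second thresholded summit, 63 bp upstream of a start (110.3, rank 1232), and it had 6 pooled regions at its starts in all. E2f2, the repressor E2F, had 48.46 at 24 bp upstream (rank 5012; 25.89 in replicate 2 and 24.1 in replicate 3). E2f1, the activator, had 37.93 at 378 bp downstream. Its region had a signal of 38.82 in replicate 2 (rank 2156), among the strongest 2892 of that library, and no partner in replicate 3. Rbf, the Rb gene, had 19.48, near the bottom of the list, and a partner in replicate 2 only (16.44).

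The listed mitotic genes gave 4 calls of 8, and all 8 had a pooled region at a start. Over all protein-coding genes these shares were 14.2% and 53.2%. The kinase gene polo, which acts at centrosomes, kinetochores and the midbody, had 123.1 in the pooled list (rank 983), 66.25 in replicate 2 (rank 784) and 55.57 in replicate 3 (rank 1402). Its summit lay in the 5′ UTR, 133 bp upstream of the inner of 2 starts and 260 bp inside the outer one. The Aurora A gene aurA, for a kinase of centrosomes, had 122.1 in the pooled list (rank 994), 63.08 in replicate 2 (rank 875) and 55.38 in replicate 3 (rank 1406), at 63 bp upstream. These neighbours in rank thus had like values in each library. Aurora B, the kinase of the chromosomal passenger complex, is encoded by aurB, which had 34.46 at −279 bp from its start and a partner in replicate 3 only (24.49).

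The spindle checkpoint holds anaphase until chromosomes are attached, and 2 of its 4 listed genes were bound. Of all protein-coding genes 14.2% were bound. In the wider list described below, Mad1, Mps1, Zw10, rod and Zwilch were not bound. BubR1 had a signal of 113.9 (rank 1145), 56.8 in replicate 2 (rank 1044) and 55.71 in replicate 3 (rank 1393), at 108 bp upstream. Bub3 had 80.04 (rank 2139), with 53.69 in replicate 2 (rank 1158) and 30.61 in replicate 3 (rank 4080), at 105 bp upstream. The Bub3 peak was thus strong in one library and outside the 2892 strongest of the other. The gene mad2 had 55.61 (rank 3984; 33.85 in replicate 3 and no partner in replicate 2). Bub1, a checkpoint kinase gene, had 36.01 (23.04 in replicate 2 and 10.43 in replicate 3). The gene fzy, which encodes the activator of the anaphase-promoting complex that the checkpoint inhibits, had 46.87 at 142 bp upstream (22.1 in replicate 2 and 15.48 in replicate 3).

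**Figure D2:**
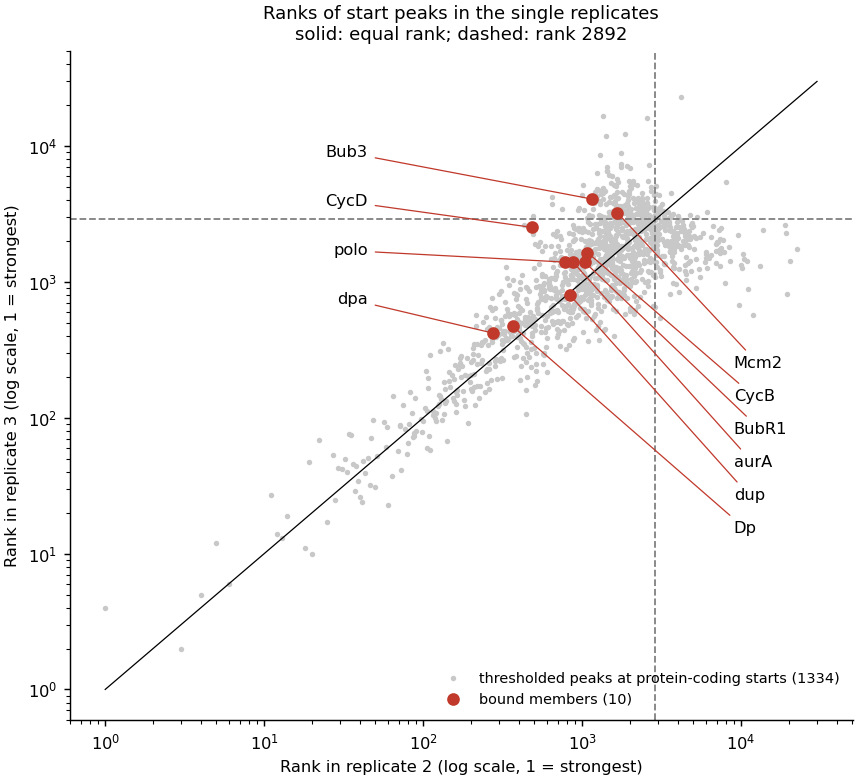
Rank in replicate 3 against rank in replicate 2 (both log scales, 1 = strongest) for the 1334 thresholded peaks at protein-coding starts with a summit in both complete lists (grey) and for 10 of the bound members (red); Mcm5 is left out because replicate 2 had no summit within 100 bp. All red points but that of dup lie above the line of equal rank, and those of Mcm2 and Bub3 lie above the dashed line at rank 2892.

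The members' peaks were ranked higher in replicate 2 than in replicate 3 in 9 of the 10 cases with a summit in both, dup being the exception. Over all such start peaks the share was 52.9% of 1334. For the wider list of cell cycle genes described below it was 75.0% of 24. In 8 of the 11 peaks (72.7%) the same summit was among the 2892 strongest regions of both replicates, against 68.8% of the 1409. Those outside were Mcm2, Bub3 and Mcm5.

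The count of bound members moved with the library and the window, and so did that over all genes. The strongest 2892 regions of replicate 2 alone marked 13 of the 38 genes, against 14.3% of all genes, and added Cdk1 and E2f1 to the 11. Those of replicate 3 alone marked 9, against 13.7%, without Mcm2 and Bub3. The 9 were also those marked in each replicate alone, against 10.6% of all genes. A window of 250 bp gave 9 (11.5% of all genes), without CycD and Mcm5, and a window of 1000 bp gave 12 (16.5%), with Cdk4 added. The stronger 1446 peaks gave 8 (7.60%), without Mcm2, Mcm5 and Bub3. With each summit given only to the nearest protein-coding start, 9 were marked (10.5%), without dup and Mcm5, whose summits lay nearer to a neighbour. The calls of dpa, Dp, polo, aurA, BubR1 and CycB held in all 6 of these settings.

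A weaker region was common at these genes. Of the 38, 31 (81.6%) had any pooled region within 500 bp of a start, against 53.2% of all genes. The share was much the same in the wider list of 136 other cell cycle genes described below, with 108 (79.4%). The 20 members that had a region without a call ranged from 19.48 to 66.15 in signal, with a median of 35.83. Of these 20, 8 ranked below 10000 of the 30000. The 7 members with no region within 500 bp of a start were Orc2, Orc4, Mcm6, geminin, PCNA, CycB3 and stg. The median distance to the nearest thresholded summit was 10780 bp over the 27 members that were not bound and 15370 bp over the 11964 unbound genes in all.

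**Figure D3:**
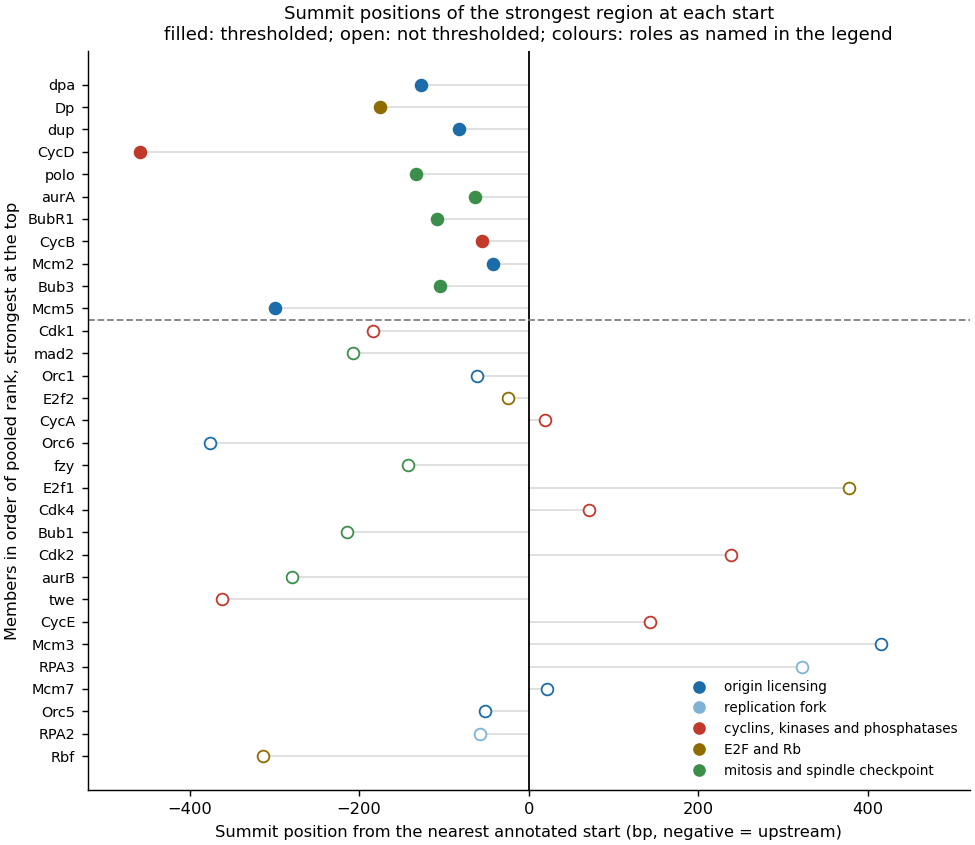
Position of the summit of the strongest pooled region relative to the nearest annotated start (bp, negative values upstream) for the 31 members with a region, from the strongest at the top to the weakest; filled points are thresholded, colours give the role. All 11 filled points lie upstream, between −458 and −42 bp, while 12 of the 20 open points lie upstream.

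All 11 summits lay upstream of the nearest start, at a median of −108 bp. Over the 1981 bound genes 85.1% lay upstream, with a median of −114 bp. For 7 of the 11 the summit was outside the gene, and for dpa, Dp, dup and polo it was inside, between an outer and an inner start. Of the 14 members with more than 1 annotated start, 5 were bound (35.7%), against 24.6% of all such genes. Of the 24 with 1 start, 6 were bound (25.0%), against 10.5%. A gene with more starts has more windows in which a summit can fall.

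Summits were shared with a neighbouring gene about as often as among all bound genes. At 6 of the 11 bound members (54.5%) another protein-coding start lay within 500 bp of the summit, against 56.7% of the 1981 bound genes. Each of these 6 neighbours was transcribed from the opposite strand. Distances between starts are to the member's start nearest the summit. The pair of Mcm2 and RPA1, both replication genes, had starts 519 bp apart, with the summit 42 bp from Mcm2 and 477 bp from RPA1. The pair of Bub3 and Cap-D2, a condensin subunit gene, had starts 230 bp apart, with the summit 105 bp from Bub3 and 125 bp from Cap-D2. The summit lay 127 bp from dpa and 143 bp from didum, a myosin V gene, and 63 bp from aurA and 256 bp from CG3281. At dup it lay 28 bp from SRPK, a kinase gene, and 82 bp from dup. At Mcm5 it lay 1 bp from the start of Art1, an arginine methyltransferase gene. The lists do not show which gene of a pair a peak belongs to. Among the regions that missed the threshold, those at E2f2, fzy, Bub1, aurB, twe and Orc5 likewise lay within 500 bp of starts of Mpp6, cni, Nin, Stam, CG4935 and Arpc1, in that order.

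**Figure D4:**
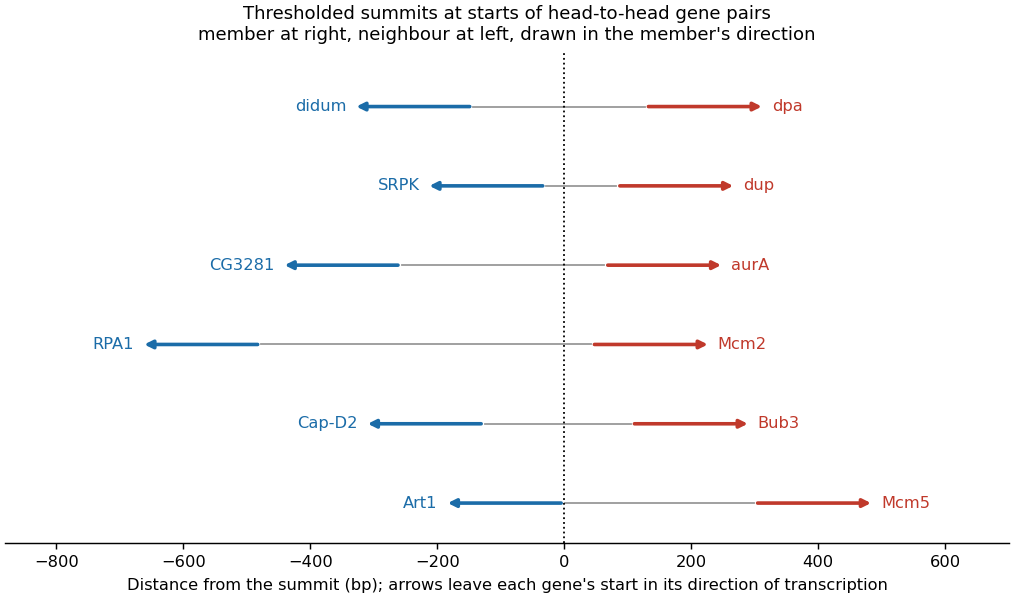
Map of the 6 bound members (red, right) whose summit lies within 500 bp of a neighbour's start (blue, left), drawn in bp from the summit, with arrows that leave each start in the direction of transcription. In 5 pairs the summit lies between the starts, and at Mcm5 it lies 1 bp from the start of Art1.

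Head-to-head starts were themselves common among these genes. Of the 38, 21 (55.3%) had a protein-coding start on the opposite strand within 1000 bp upstream of one of theirs, against 36.2% of all genes. Of these 21, 8 were bound (38.1%), against 25.1% of all such genes, and of the other 17, 3 (17.6%) against 8.01%. In the wider list of 136 other cell cycle genes described below, 87 (64.0%) had such a start, and 21 of the 87 were bound (24.1%).

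The DNA between the starts of Cap-D2 and Bub3 is printed because both genes act in mitosis and 1 summit marks both. It runs 5′ to 3′ on the strand of Bub3, from the start of Cap-D2 to that of Bub3, with the same motifs in capitals.
Cap-D2 to Bub3, chr3R:29675421-29675651, minus strand: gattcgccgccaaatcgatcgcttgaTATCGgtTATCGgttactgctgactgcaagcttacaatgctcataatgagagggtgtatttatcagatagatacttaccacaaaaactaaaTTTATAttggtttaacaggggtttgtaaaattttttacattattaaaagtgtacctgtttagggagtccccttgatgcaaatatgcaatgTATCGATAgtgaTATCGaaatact
The complete DRE lay at the Bub3 end, more than 50 bp from the summit, and single DRE cores lay at both ends.

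Promoters were then read for all genes alike, as the 250 bases before and 50 from the outermost start. The DRE was present in 8 of the 38 promoters (21.1%), against 9.36% of the 13945, at Bub3, BubR1, Cdk2, CycA, Orc2, Orc5, PCNA and mad2. Of these 8, Bub3 and BubR1 were bound. An E2F form was present in 9 (23.7%) against 6.43%, at Mcm2, Mcm3, Mcm5, Mcm6, Orc1, Orc4, Orc5, Orc6 and stg, of which Mcm2 and Mcm5 were bound. The M1BP core was present in 7 (18.4%) against 7.70%, and CycB alone of these was bound. Among all bound genes the shares were 15.4% for the DRE, 8.08% for the E2F forms and 10.4% for the M1BP core. The TATA box (47.4% against 45.8%) and the CGATA core (52.6% against 47.4%) were about as frequent as in all promoters. CGATA was present in 9 of the 11 bound and 11 of the 27 other members' promoters, and in 56.5% of the promoters of all bound genes. The E-box was in 0 of the 38 against 4.20%. PCNA, Orc2, Orc4, Mcm6 and stg thus had a DRE or an E2F form and no CG1792 region within 500 bp of a start. The summit itself lay inside this promoter at 5 of the 11 bound members, since other summits lay farther upstream or at inner starts.

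**Figure D5:**
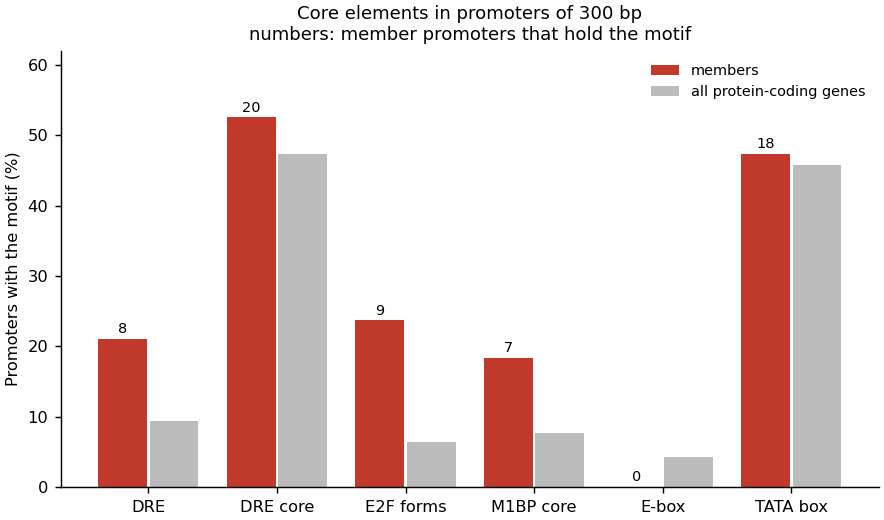
Share of promoters of 300 bp (%) that hold each motif on either strand, for the 38 members (red, with the number of promoters) and for all 13945 protein-coding genes (grey). The members' bars are higher for the DRE (21.1% against 9.36%), the E2F forms (23.7% against 6.43%) and the M1BP core (18.4% against 7.70%), and close to grey for the DRE core and the TATA box.

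No member had a thresholded summit in its gene body without one at a start. The 0 of 38 allows a share of up to 7.89%, taken as 3 counts of 38. This bound covers counting only and makes no allowance for how the genes were chosen. Of all genes 3.70% had such a summit. Of the 38, 17 had pooled regions in the body away from starts, among them stg, CycB3 and Orc2, which had none at a start. The share over all genes was not computed for this count, so it describes these genes only. The strongest were intronic, in Dp (59.31, rank 3584), CycE (59.12, rank 3605) and E2f1 (58.92, rank 3621), all below the threshold of 66.97. E2f1, a gene of 40568 bp, held 13 such regions and CycE, of 20570 bp, held 2.

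Across chromosome arms, 5 of 11 members on 2R and 4 of 9 on 3R were bound, 1 of 4 on 3L, 1 of 5 on X and 0 of 9 on 2L. Of all genes on 2L, 13.9% were bound, and on the other large arms 12.6% to 15.9%.

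A wider list of 136 other replication and cell cycle genes, chosen by function, held 25 bound genes (18.4%). This lies nearer to the 14.2% of all genes than the 28.9% of the members does, and the difference was not tested. Its side of the background turned with the setting: with the nearest start only, 12 of the 136 were marked (8.82%, against 10.5% of all genes), and by replicate 3 alone 18 (13.2% against 13.7%). The calls of RPA1 and Cap-D2 in this list rest on the same summits as those of the members Mcm2 and Bub3. Cohesin and condensin genes, whose products hold sister chromatids together and compact them, gave 6 of 16, and centrosome genes 4 of 13. Genes of origin licensing and firing outside the 38 gave 1 of 12, the GINS gene Psf1, and cyclins, kinases and their regulators 4 of 23. Fork genes gave 4 of 22, damage checkpoint genes 3 of 10, genes of mitosis, the kinetochore and cytokinesis 3 of 33, and Rb and dREAM genes 0 of 7. The strongest peak of the list was at pds5, a cohesin cofactor gene, with a signal of 305.8 (rank 142), of 146.9 in replicate 2 and of 159.9 in replicate 3. Next came SMC2 (132.6), a condensin gene, dmt (128.8), which protects cohesin, p53 (126.1), the condensin II gene Cap-H2 (123.5) and RnrS (115.0), a ribonucleotide reductase gene. Weaker peaks of this list were at tacc (113.7), a spindle gene counted here with mitosis, the centrosome gene gammaTub23C (107.8), the ubiquitin ligase gene slmb (113.5) and tefu (106.5), the fly ATM gene. Of the 25 summits, 19 lay within 500 bp of another protein-coding start (76.0%), beside 56.7% over all bound genes, a difference that was not tested. At tefu the neighbour was Hsc70-4, a chaperone gene, and at pds5 it was Mppe.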

How the data were processed

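ChIP-seq peak lists of 2 libraries (biological replicates 2 and 3, 1 group) were used. Per the deposited listing of files, the authors derived regions from each library's alignment, and from both alignments pooled, together with a further file that the listing does not describe. The labels name a possible control experiment. From these lists they kept a smaller one by the irreproducible discovery rate. For aligner and peak caller, names and versions were not given in the sources used here. Signal is the authors' deposited value per region, and its scale is not stated, so it was compared within a list or by rank. The deposited q-values and the dm3 lists were not used.

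Each single-replicate and pooled list held 30000 regions. The thresholded list held 2892, which were exactly the 2892 strongest pooled regions. Positions are 1-based in dm6, and all regions lay inside the arms of the RefSeq Release 6 genome. Genes came from Ensembl release 115, on 6 arms. A replicate's partner was its strongest region with a summit within 100 bp of the pooled summit. A replicate without a partner could still hold a region elsewhere within 500 bp of a start, as replicate 2 did at CycE, Cdk4 and mad2.

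Of 140 entries for other cell cycle genes, 136 distinct genes were found. The members and the lists were chosen with earlier results of these data known, so no set test was run. The grouping into complexes was made after the values were seen. Genes were named by rule: every bound member, the 5 strongest others, members with no region, neighbours at shared summits and the 10 strongest of the other genes; further members are named so that all 38 have their values. Calls were tested on simulated summits. Python 3.11.15, pandas 2.3.3, numpy 2.4.6 and matplotlib 3.10.9 were used.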

Additional observations from a re-analysis of the deposited data

How the results depend on the processing

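The count of bound members was 8 to 12 under other windows, peaks or assignments, and 9 to 13 with replicate 2 or 3 left out, against the 11 reported. The 25 bound genes of the wider list became 13 (9.56%, against 7.60% of all genes) in the stronger 1446 peaks and 12 (8.82%, against 10.5%) with the nearest start only. They were 18 (13.2%, against 13.7%) without replicate 2 and 24 (17.6%, against 14.3%) without replicate 3. Members with a pooled region numbered 24 with a window of 250 bp (42.2% of all genes) and 35 with 1000 bp (61.8%). They numbered 33 in replicate 3 alone (54.0%) and 30 in replicate 2 alone (49.6%). The count in gene bodies stayed at 0 in the stronger peaks (2.55% of all genes). It was also 0 in replicate 3 alone (3.76%) and in replicate 2 alone (3.84%). The 8 promoters with the DRE became 2 of 31 windows reaching 50 bp to either side of the strongest pooled summit (4.71% of all such windows) and 20 promoters with CGATA in place of TATCGATA. These are other sequence lengths and a shorter motif by construction. No paired analysis was possible because there was 1 group. Depth is unknown and the signal scale is not stated. The members were not tested against other genes, since the list was chosen with results known.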
